A study of Homo sapiens with 6 samples.

Results

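The peptidylarginine deiminases PADI1, PADI2, PADI3 and PADI4 were followed in MCF10DCIS.com (hereafter MCF10DCIS) breast cancer cells after silencing of WDR5. They were taken by name from a table of 26334 genes, and the family was chosen by the measured difference of PADI1 between shWDR5 and shLuc cells, one of the steepest falls in the table. All 4 members were in the table, and all 4 passed the filter on low counts that left 16117 genes for testing. Because the difference between shWDR5 and shLuc cells is what chose the family, that difference is described below for its members without a p-value.

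The 6 libraries were 3 of shLuc cells and 3 of shWDR5 cells. MCF10DCIS is a human line of the MCF10A lineage that grows as ductal carcinoma in situ-like lesions in mice. Infection of the shLuc cells used the vector pRSI-U6-shLuc-UbiC-TagRFP-2A-Puro, which carries a hairpin against luciferase as a neutral control. The shWDR5 cells received the same backbone against WDR5 (pRSI-U6-shWDR5-UbiC-TagRFP-2A-Puro), and the methods of the study describe a pool of WDR5 hairpins for infections without saying whether these libraries came from it. WDR5 is a WD40-repeat subunit of the MLL/SET1 histone methyltransferase complexes. Both groups thus also expressed TagRFP and a puromycin resistance gene, were selected with 3 µg/ml puromycin, and grew in medium with 5% horse serum and 1.05 mM CaCl2. Nothing in the labels says whether replicates were separate infections or cultures. The p-values thus weigh group differences only against the spread between these libraries within a group.

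Peptidylarginine deiminases are calcium-dependent enzymes that turn arginine residues of proteins into citrulline, which removes a positive charge and loosens protein folding and binding. In stratified epithelia, PADI1 and PADI3 act on keratins and filaggrin during late differentiation, and PADI3 also acts on trichohyalin in the hair follicle. PADI2 is the most widely expressed member, known from brain, where it acts on myelin basic protein, and from mammary epithelium. PADI4 is best known from neutrophils, where it enters the nucleus and acts on histones, and PADI6, the fifth human family gene, is known from oocytes.

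The libraries held 38218108 to 57640167 counted reads, and 19263 to 20042 genes had at least 1 read. WDR5 had 16.5, 15.2 and 16.1 RPKM (reads scaled to exonic length and library size) in the shLuc libraries and 7.34, 7.65 and 6.52 RPKM in the shWDR5 libraries. The WDR5 log2 fold change was -1.15 ± 0.07 (SE; adjusted p = 1.86e-07, edgeR's quasi-likelihood test with Benjamini-Hochberg adjustment). Epithelial markers were abundant, with KRT8 at 894 RPKM and KRT5 at 356 RPKM in shLuc cells. Of the 10, 6 rose (KRT5, KRT14, KRT17, TP63, LAMA3 and ITGB4). The 2 that fell were CDH1, from 103 to 50.3 RPKM, and EPCAM, from 165 to 131 RPKM. Over all tested genes 26.6% were called higher and 29.9% lower. Luminal markers (0 higher, 2 lower of 3 tested, FOXA1 and GATA3, with the receptor gene ESR1 not called), fibroblast markers (0 higher, 1 lower of 3) and endothelial markers (0 higher, 1 lower of 3) were at lower summed levels in shWDR5 libraries. The part of these marker levels in the results below was not tested. Of 9 leukocyte markers, PTPRC had 2 reads in the 3 shLuc libraries and 15 in the 3 shWDR5 libraries, and CD3E had 0 in both. The summed level of the 9 markers ran from 1.30 to 1.49 RPKM in shLuc and from 2.92 to 3.21 RPKM in shWDR5 libraries, most of it from LAPTM5 and ITGAM. These were the only 2 of the 9 tested, and both were called higher. In bulk RNA, fewer cells that express a gene and less RNA per cell cannot be told apart.

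The members form a cluster on chromosome 1, spanning 297 kb in the hg19 build. PADI2 lies on the minus strand at chr1:17393256-17445948. The other members lie to its right on the plus strand, PADI1 at chr1:17531621-17572501, PADI3 at chr1:17575593-17610727 and PADI4 at chr1:17634690-17690495, each with 16 exons in the table. PADI2 and PADI1 are thus transcribed away from each other across a gap of 85.7 kb, while only 3091 bases separate the end of PADI1 from the start of PADI3. PADI6 follows PADI4 after a further 8.20 kb. No exon of the 5 genes overlapped an exon of another gene of the table, and no stretch of 31 bases was shared between transcripts of any pair of them in the GENCODE annotation.

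The start regions of members that were lower together are printed from RefSeq (build GRCh38.p14), as 300 bases that lie mostly before each gene's start, to show how they differ. RefSeq start regions matched for PADI1, PADI2 and PADI4. Capitals mark any of 5 motifs sought on both strands: the TATA box TATAAA, the GC box GGGCGG, the CCAAT box CCAAT, the AP-1 motif TGANTCA and the E-box CACGTG.
PADI1, chr1:17204878-17205177, plus strand: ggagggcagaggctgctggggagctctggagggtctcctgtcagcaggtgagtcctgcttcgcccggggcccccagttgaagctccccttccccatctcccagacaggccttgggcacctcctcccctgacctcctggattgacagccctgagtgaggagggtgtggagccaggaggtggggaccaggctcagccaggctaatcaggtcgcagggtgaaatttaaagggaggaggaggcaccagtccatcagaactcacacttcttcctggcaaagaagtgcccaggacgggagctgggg
PADI2, chr1:17119402-17119701, minus strand: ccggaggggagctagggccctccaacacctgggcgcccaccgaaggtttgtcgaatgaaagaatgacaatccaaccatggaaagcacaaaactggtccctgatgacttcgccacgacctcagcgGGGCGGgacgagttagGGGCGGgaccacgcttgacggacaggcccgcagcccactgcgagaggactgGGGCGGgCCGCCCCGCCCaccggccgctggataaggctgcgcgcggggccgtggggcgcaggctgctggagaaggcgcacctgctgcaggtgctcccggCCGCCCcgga
PADI4, chr1:17307947-17308246, plus strand: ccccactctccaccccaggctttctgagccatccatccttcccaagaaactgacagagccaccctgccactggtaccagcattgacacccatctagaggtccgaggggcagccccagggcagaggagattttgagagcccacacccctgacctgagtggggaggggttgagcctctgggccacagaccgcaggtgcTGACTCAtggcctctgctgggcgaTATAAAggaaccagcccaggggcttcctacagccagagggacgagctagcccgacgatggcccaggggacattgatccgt
The PADI2 window held 6 GC boxes, a pair of which overlap, and 28 CG dinucleotides. The PADI4 window held a TATA box starting 30 bases before the gene's start and an AP-1 motif starting 54 bases before it, with 7 CG dinucleotides. The PADI1 window held none of the 5 motifs and 4 CG dinucleotides, against a median of 14 over 35116 RefSeq windows of the same length. Of those windows, 45.0% held a GC box, 34.6% a CCAAT box, 11.5% a TATA box, 7.71% an AP-1 motif and 7.26% an E-box. No motif of the 5 was found in more than 1 of these 3 windows, and PADI3 was not examined.

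In control cells the members differed widely in level, and PADI2 was the most abundant. The mean level was 61.2 ± 1.32 RPKM for PADI2, 21.3 ± 1.33 RPKM for PADI3, 7.06 ± 0.32 RPKM for PADI1 and 0.776 ± 0.0125 RPKM for PADI4 (SD, n = 3 shLuc libraries). No neighbours in this order overlapped in any library. Within a library PADI2 was 2.88 ± 0.218 times PADI3, PADI3 was 3.02 ± 0.0705 times PADI1, and PADI1 was 9.10 ± 0.528 times PADI4 (SD, n = 3). PADI2 thus made up 67.7 ± 1.50% of the summed RPKM of the 4 genes, PADI3 23.6 ± 1.22%, PADI1 7.82 ± 0.318% and PADI4 0.860 ± 0.0179%. PADI6 had 1, 0 and 0 reads in the shLuc libraries and 5, 4 and 1 in the shWDR5 libraries, too few for a comparison.

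**Figure D1:**
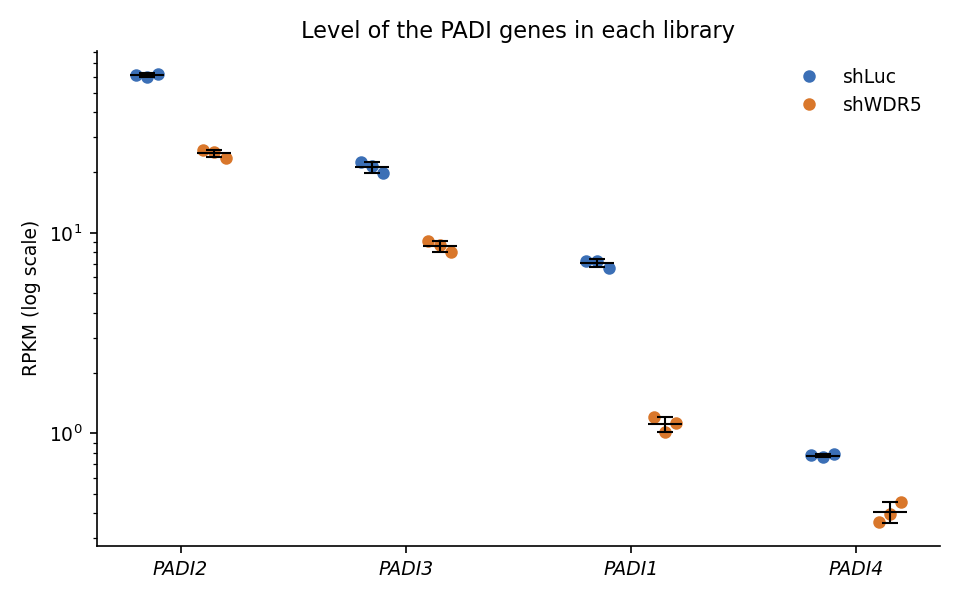
Level of PADI2, PADI3, PADI1 and PADI4 in RPKM on a log axis, with a point for each of the 3 shLuc (blue) and 3 shWDR5 (orange) libraries and black bars for mean ± SD. Every shWDR5 point lies below every shLuc point of the same gene, and PADI1 shows the widest gap.

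PADI1, which like PADI3 is known from epidermis, had the largest fold difference of the 4 members between groups. It had 1383, 1076 and 1039 reads in the shLuc libraries, or 7.28, 7.21 and 6.69 RPKM. In the shWDR5 libraries it had 214, 221 and 197 reads, or 1.20, 1.01 and 1.13 RPKM. The groups stood far apart, with the lowest shLuc library 5.57 times the highest shWDR5 library. The fitted log2 fold change was -2.67 ± 0.09 (SE), a level 6.36-fold lower in shWDR5 cells. Among the 16117 tested genes this was the 8th steepest fall, a rank in the same contrast that chose the family. The 7 genes ahead of it had at most 1.89 RPKM in shLuc cells (KCNH2), and the next in order on either side were LGALS9C at -2.67, a gene with near-identical copies, and HPGD at -2.58 on the log2 scale.

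PADI2, the most abundant member, was lower in shWDR5 cells by a smaller factor than PADI1 but by the largest difference in RPKM. It had 61.5, 59.7 and 62.3 RPKM in the shLuc libraries, from 13264, 10100 and 10960 reads. In the shWDR5 libraries it had 25.8, 25.2 and 23.6 RPKM, from 5214, 6256 and 4672 reads. The spread within a group was 2.15% of the mean in shLuc and 4.54% in shWDR5 libraries, and the groups did not overlap. The log2 fold change was -1.30 ± 0.06 (SE), or 2.46-fold lower.

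PADI3, which lies directly behind PADI1 on the same strand, differed between groups by nearly the same factor as PADI2. Its level was 22.5, 21.5 and 19.9 RPKM in the shLuc libraries (3549, 2656 and 2558 reads). In the shWDR5 libraries it was 9.09, 8.68 and 7.998 RPKM (1342, 1573 and 1156 reads). Again no library of either group reached into the other. The log2 fold change was -1.31 ± 0.07 (SE), or 2.48-fold lower. A separate row of the table, the microRNA gene MIR3972, covers 87 bases between exons 13 and 14 of PADI3. It had 20, 15 and 5 reads in the shLuc and 5, 8 and 7 reads in the shWDR5 libraries, so its groups overlapped, and it was not tested.

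PADI4, the leukocyte member, had the fewest reads of the 4. It had 87, 67 and 72 reads in the shLuc libraries, or 0.777, 0.763 and 0.788 RPKM. The shWDR5 libraries gave 38, 51 and 47 reads, or 0.362, 0.396 and 0.458 RPKM. The groups did not overlap here either, but the shWDR5 libraries spread by 11.9% of their mean and the log2 fold change of -0.94 ± 0.15 (SE) had the largest error of the family. The level was 1.92-fold lower in shWDR5 cells.

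All 4 members were therefore lower in every shWDR5 library than in any shLuc library. A large share of the transcriptome differed between the shWDR5 and shLuc libraries. Of tested genes 56.5% were called at an adjusted p under 0.05 (edgeR), 29.9% lower and 26.6% higher. That balance moved with scaling, from 4811 lower and 4292 higher to 4395 lower and 4673 higher with upper-quartile factors, and to 5480 lower and 3705 higher with library totals alone. The RPKM ranges of the groups did not overlap for 62.3% of tested genes, and for 32.4% they did so with shWDR5 lower. By the criteria of the study, which add a minimum log2 change of 0.6 and a minimum level of 0.5 RPKM, 10.4% of tested genes were called lower, and the values of all 4 members lay past both minima, PADI4 only through its shLuc level, since all 3 shWDR5 libraries lay under 0.5 RPKM. At least 2-fold lower levels were found for 4.29% of tested genes, PADI1, PADI2 and PADI3 among them. The share of tested genes with a larger fall was 0.0434% for PADI1, 1.85% for PADI3, 1.94% for PADI2 and 4.93% for PADI4. Nothing is read from these counts and shares for the members, which this contrast chose. The place of PADI1 among the steepest falls follows from that choice.

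**Figure D2:**
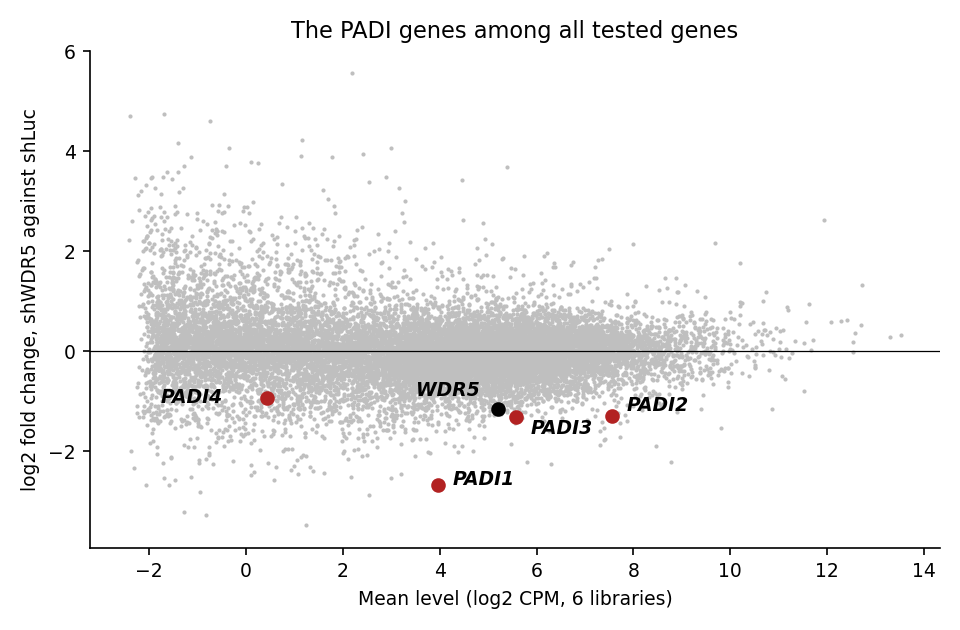
Log2 fold change of shWDR5 against shLuc cells for all 16117 tested genes (grey) against their mean level in log2 CPM over 6 libraries, with the PADI genes in red and WDR5 in black. The PADI genes sit below 0 at levels from 0.44 (PADI4) to 7.55 (PADI2) log2 CPM, and PADI1, at 3.96 log2 CPM, lies at the lower edge of the cloud at -2.67.

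Ratios between members, taken inside each library, do not depend on how libraries were scaled. The log2 ratio of PADI2 to PADI3 was 1.52 ± 0.107 in shLuc and 1.54 ± 0.0286 in shWDR5 libraries (SD, n = 3), a difference of 0.01 that was smaller than either SD. The log2 ratio of PADI1 to PADI3 was -1.59 ± 0.0335 in shLuc and -2.95 ± 0.142 in shWDR5 libraries. The 3 values of each group lay apart, a shift of -1.36. Against PADI2 the shift of PADI1 was -1.37, and against PADI4 it was -1.72. The log2 ratio of PADI3 to PADI4 was 4.78 ± 0.105 in shLuc and 4.41 ± 0.264 in shWDR5 libraries, a shift of -0.37 that carries the counting error of PADI4.

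As a result the make-up of the family shifted away from PADI1. The summed level of the 4 members was 92.1, 89.2 and 89.6 RPKM in the shLuc libraries and 36.4, 35.3 and 33.2 RPKM in the shWDR5 libraries. PADI1 made up 3.19 ± 0.286% of that sum in shWDR5 libraries, compared with 7.82% in shLuc libraries. PADI2 made up 71.1 ± 0.328%, PADI3 24.5 ± 0.424% and PADI4 1.16 ± 0.196% (SD, n = 3). The order of levels was the same in both groups, but PADI3 was now 7.75 ± 0.77 times PADI1, and PADI1 was 2.78 ± 0.467 times PADI4.

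Genes around the cluster went both ways. Of 17 other genes in the table within 500 kb, 12 were tested, and 5 were called lower, 3 higher and 4 neither way. Over all tested genes 29.9% were called lower and 26.6% higher, and nothing is read from the neighbour counts. Their median log2 fold change was -0.01, the same as over all tested genes. The 2 nearest tested genes on each side were all called lower, and the 3 called higher lay further out on their own side. A link between distance and call was not tested. The start of MFAP2, called higher, lay at -223.5 kb from that of PADI1, and that of ARHGEF10L, called lower, at 334.7 kb. ATP13A2, a lysosomal transport ATPase, went from 25.9 to 22.4 RPKM, a log2 fold change of -0.21 ± 0.08 (SE; adjusted p = 0.0441, edgeR). SDHB, a subunit of succinate dehydrogenase and the nearest tested gene beyond PADI2, went from 91.3 to 72.2 RPKM, a log2 fold change of -0.34 ± 0.06 (SE; adjusted p = 2.75e-04, edgeR). RCC2, a mitotic regulator and the nearest tested gene beyond PADI4, went from 77.8 to 62.9 RPKM, at -0.31 ± 0.05 (adjusted p = 2.14e-04, edgeR). ARHGEF10L, further to the right, fell from 7.74 to 3.84 RPKM, at -1.01 ± 0.08 (adjusted p = 6.34e-07, edgeR). CROCC, a ciliary rootlet gene, was at 2.71 and 2.82 RPKM and was not called (adjusted p = 0.582, edgeR). MFAP2, which encodes a microfibril protein, rose with a log2 fold change of 1.00 ± 0.34 (adjusted p = 0.0256, edgeR), but from 50 reads in all shLuc libraries to 115 in all shWDR5 libraries. The lowest log2 fold change among the tested neighbours, that of ARHGEF10L, lay between those of PADI3 and PADI4. ACTL8, an actin-like gene at the right edge, had the highest, at 1.03 ± 0.14 (adjusted p = 5.53e-05, edgeR).

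The genes whose pattern over the 6 libraries was most like that of each member were then listed. Likeness was the root mean square difference of log2 CPM after centring each gene on its own mean, over 13402 genes. For PADI1 the closest were SIPA1 (0.123), NEURL1B (0.130), CKB (0.156), KCNH2 (0.168) and TGM5 (0.179), with Pearson's r between 0.995 and 0.999 (rounded) over 6 libraries. Their log2 fold changes ran from -2.87 (KCNH2) to -2.43 (TGM5). TGM5, an epidermal transglutaminase, had 2.06, 1.75 and 1.87 RPKM in the shLuc and 0.390, 0.350 and 0.311 RPKM in the shWDR5 libraries. The closest to PADI2 were ZDHHC18 (0.0219), MANEAL (0.0247) and C11orf73 (0.0303). For PADI3 they were ECSIT (0.0320), ECE1 (0.0454) and RAD54L (0.0489), and for PADI4 NANOS1 (0.0567), UACA (0.0583) and NCAPG2 (0.0629). PADI2 and PADI3 differed from each other by 0.0643 on this measure and PADI1 from PADI3 by 0.678. These r values mostly restate that each gene differs between the same 2 groups of libraries.

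Proteins known to be citrullinated were looked at next, as a list of 30 genes. Of the 25 tested, 10 rose and 3 fell, against 26.6% and 29.9% of all tested genes, and the median log2 fold change was 0.14. FN1, the matrix protein fibronectin, rose from 123 ± 6.61 to 752 ± 76.8 RPKM (log2 fold change 2.62 ± 0.08 SE, adjusted p = 2.66e-09, edgeR). CXCL10, a chemokine that PADI enzymes can modify, rose from 0.803 ± 0.118 to 8.44 ± 0.517 RPKM (3.39 ± 0.12, adjusted p = 4.22e-09, edgeR). KRT14, a basal keratin, rose from 44.1 ± 4.11 to 108 ± 11.0 RPKM (1.29 ± 0.09, adjusted p = 7.89e-07, edgeR). FLG encodes filaggrin, the main epidermal substrate of PADI1 and PADI3. It had 3, 2 and 0 reads in the shLuc and 49, 51 and 50 reads in the shWDR5 libraries, a mean there of 0.0800 RPKM. It is among the 10 called higher but passed the filter on low counts only through the shWDR5 group, so no p-value is given. The 3 that fell were MBP, E2F1 and HNRNPA2B1. MBP, the myelin basic protein that PADI2 acts on in brain, fell from 8.58 ± 0.281 to 4.05 ± 0.214 RPKM (-1.08 ± 0.06, adjusted p = 1.11e-07, edgeR). The most abundant genes of the list that were not called were RPS2 at 1613 and 1546 RPKM and NPM1 at 1120 and 1071 RPKM. KRT1, an epidermal keratin and classical substrate, had 0 reads in the shLuc and 1 in the shWDR5 libraries.

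Of the enzymes and inhibitors that govern profilaggrin cleavage and filaggrin breakdown, 12 were tested, 6 fell and 2 rose (29.9% and 26.6% of all tested genes did). The count of rises was 0 or 1 without shLuc replicate 2 or 3 or any 1 of the shWDR5 replicates. The median log2 fold change was -0.28. CTSH, a lysosomal cathepsin, fell from 46.8 ± 1.15 to 28.8 ± 1.27 RPKM (log2 fold change -0.70 ± 0.06 SE, adjusted p = 1.51e-06, edgeR). BLMH, bleomycin hydrolase, which releases citrulline from filaggrin peptides, fell from 12.4 ± 0.865 to 8.18 ± 0.56 RPKM (-0.60 ± 0.08, adjusted p = 4.72e-05, edgeR). SPINK5, an inhibitor of epidermal kallikreins, fell from 0.27 ± 0.0448 to 0.163 ± 0.00725 RPKM. ASPRV1, a skin aspartic protease called higher, had 22 reads in all shLuc libraries and 60 in all shWDR5 libraries. It passed the filter on low counts only through the shWDR5 group. FURIN, at 57.6 and 52.5 RPKM, and KLK14, at 1.12 and 1.16 RPKM, were not called.

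Markers of epidermal differentiation, the setting in which PADI1 and PADI3 are best known, went both ways. Of 24 genes 18 were tested, 7 rose and 5 fell (26.6% and 29.9% of all tested genes did), with a median log2 fold change of -0.07. LCE3D, a late cornified envelope gene, had 5, 1 and 6 reads in shLuc and 69, 64 and 53 reads in shWDR5 libraries. SPRR3, a small proline-rich protein, rose from 26, 11 and 18 to 67, 79 and 58 reads. CALML3, a calmodulin-like protein of epithelia, had 13 reads in all shLuc and 70 in all shWDR5 libraries. LCE3D and CALML3, both called higher, passed the filter only through the shWDR5 group. TGM5, named above, had the steepest fall of the list (log2 fold change -2.43 ± 0.13 SE, adjusted p = 5.49e-08, edgeR). SPRR1A, at 18.1 and 15.5 RPKM, and KRT10, at 5.68 and 6.60 RPKM, were not called.

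Transcription factors reported at PADI genes or in keratinocyte differentiation were all expressed enough to be tested. Of the 23, 10 rose and 5 fell (26.6% and 29.9% of all tested genes did), and the median log2 fold change was 0.26. OVOL1, an epithelial zinc finger factor, fell from 7.59 ± 0.463 to 3.19 ± 0.329 RPKM (-1.26 ± 0.09 SE, adjusted p = 3.92e-07, edgeR). ZNF750, a factor of terminal epidermal differentiation, fell from 2.46 ± 0.16 to 1.17 ± 0.0225 RPKM (-1.07 ± 0.09, adjusted p = 1.57e-06, edgeR). SP1, which binds GC boxes, fell from 23.7 ± 0.895 to 14.9 ± 0.172 RPKM (-0.67 ± 0.05, adjusted p = 9.34e-07, edgeR). PRDM1, a repressor with a role in late keratinocyte differentiation, rose from 3.86 ± 0.125 to 6.50 ± 0.526 RPKM (0.75 ± 0.07, adjusted p = 5.26e-06, edgeR). The AP-1 subunits FOSB, at 21.0 and 28.5 RPKM, and JUND, at 17.3 and 19.5 RPKM, were not called, and FOSB ranged from 15.1 to 31.3 RPKM among shLuc libraries alone.

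Enzymes that use or return arginine include the protein arginine methyltransferases, whose methyl marks and citrulline can compete for the same residue. The list also held WDR77, which is not an enzyme and was called higher. Of 16 genes tested, 6 rose and 4 fell (26.6% and 29.9% of all tested genes did), with a median log2 fold change of -0.03. ARG2, the mitochondrial arginase, fell from 9.34 ± 0.481 to 4.92 ± 0.289 RPKM (-0.92 ± 0.08 SE, adjusted p = 1.53e-06, edgeR). PRMT1, the main asymmetric arginine methyltransferase, fell from 151 ± 7.94 to 98.9 ± 4.61 RPKM (-0.61 ± 0.06, adjusted p = 4.75e-06, edgeR). DDAH2, a relative of the dimethylarginine hydrolase DDAH1, fell from 3.88 ± 0.231 to 2.84 ± 0.166 RPKM. CARM1, another arginine methyltransferase, rose from 23.8 ± 1.43 to 30.1 ± 0.87 RPKM. ASL, of the urea cycle, and PRMT6 were not called, at 13.9 and 13.8 RPKM and at 10.8 and 9.97 RPKM.

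PADI activity depends on calcium, and genes of calcium entry, release, storage and sensing were counted last. Of 11 tested, 5 fell and 2 rose (29.9% and 26.6% of all tested genes did). Without shLuc replicate 1 or 2 or shWDR5 replicate 2 or 3, 2 or 3 fell. Over the 11 genes the median log2 fold change was -0.10. TRPV6, an epithelial calcium channel, fell from 0.90 ± 0.164 to 0.359 ± 0.048 RPKM (-1.33 ± 0.17 SE, adjusted p = 4.04e-05, edgeR). ITPR1, a calcium release channel, rose by 0.36 on the log2 scale, ATP2C1, a pump that moves calcium from the cytosol into the Golgi, rose by 0.24, and ORAI1, the store-operated channel, fell by 0.29. ATP2A2, the pump that moves calcium into the endoplasmic reticulum, at 90.0 and 95.6 RPKM, and STIM1, the calcium sensor of that store, at 23.8 and 25.2 RPKM, were not called. CASR, the calcium-sensing receptor, had 0 reads in all 6 libraries.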

How the data were processed

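Poly(A) RNA of 3 shLuc and 3 shWDR5 MCF10DCIS libraries was sequenced. The authors deposited raw read counts per gene, for which their processing notes name TopHat2 2.1.0, featureCounts and hg19. The use of strand in counting is not given in the sources used here, so reads from a gene and any antisense partner cannot be told apart. Their deposited edgeR results (log2 fold changes and p-values) were not used for any value given here. The choice of the family, however, rested on a reported fall of PADI1.

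Counts were analysed in R 4.3.3 with edgeR 4.0.16 (filterByExpr with a minimum count of 10, TMM scaling, glmQLFit with robust estimation, glmQLFTest, Benjamini-Hochberg adjustment over 16117 genes, called at 0.05). SEs are the absolute log2 fold change divided by the square root of F. RPKM uses the exonic length in the table and TMM-scaled totals. The biological coefficient of variation was 0.0723. Replicates differed by 7.20 to 18.4 times sampling noise (chi-square per gene), so no pair looked like 1 library deposited again. Members and lists were chosen with earlier results of these data known. Named genes were the members, WDR5, neighbours within 500 kb, the 5 genes most like PADI1 and 3 for each other member among genes with a mean log2 CPM of at least 0, and per list up to 4 called genes with the largest change and the 2 most abundant not called. Marker lists of 5 cell types were checked. DESeq2 1.42.0 was an alternative. The script was tested on simulated data. KRT1, MBP, E2F1, HNRNPA2B1 and the cell type markers named were named after their values were seen. Totals of 38218108 to 57640167 reads bound the precision of low counts. Alternatives were other scalings, filters, a replicate block, the criteria of the study and leaving out each library.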

Additional observations from a re-analysis of the deposited data

How the results depend on the processing

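The log2 fold changes of the 4 members stayed within 1 replicate SD under 13 alternatives: relative log expression or upper-quartile scaling, library totals alone (chosen after seeing the data), DESeq2, other filters, the replicate block and each library left out in turn. They ranged from -2.73 to -2.60 for PADI1, -1.35 to -1.26 for PADI2, -1.37 to -1.25 for PADI3 and -1.03 to -0.87 for PADI4. WDR5 kept its call under all of them. The count of called genes was 9103, 8476 by DESeq2, and 8129 to 8841 with a library left out. Under the study's criteria (adjusted p under 0.05, absolute log2 fold change of at least 0.6, over 0.5 RPKM) it was 2957, of which 1273 were higher and 1684 lower. Replicate numbers were not treated as pairs in the main fit. Same-numbered libraries correlated in their deviations at 0.372, 0.0358 and 0.116. By this measure shLuc replicates 1 and 3 were closest to their own number, and shLuc replicate 2 to shWDR5 replicate 3 (0.210). With the replicate block, 10430 genes were called, 4909 higher and 5521 lower, and the citrullinated list had 5 lower instead of 3. The block took the SE from 0.086 to 0.073 for PADI1, 0.056 to 0.043 for PADI2 and 0.071 to 0.044 for PADI3. For PADI4 the SE went from 0.150 to 0.161. List counts stayed within 1.5 times in 143 of 156 cases. The others were small counts: the filaggrin list had 0 or 1 higher instead of 2 in 8 settings, and the calcium list had 2 or 3 lower instead of 5 without shLuc replicate 1 or 2 or shWDR5 replicate 2 or 3. PADI4, with 38 to 87 reads a library, had the largest error of the members.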
